A study of Mus musculus with 6 samples.

Results

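Each deposited table lists 24879 genomic rows, and 1021 of them carry a dash where the others carry a gene symbol. These unnamed rows were chosen by that dash alone, without use of their values, and were located by chromosome, start and end on mouse GRCm38 (mm10). The values are FPKM, in which a fragment number is divided by transcript length and by the fragments of the library, in total RNA of mouse embryonic fibroblasts that received OSKM, the reprogramming factors Oct4, Sox2, Klf4 and Myc, taken at day 7. WT cells (2 libraries) had both Adar1 alleles floxed (Fl/Fl) and received vehicle, and KO cells (2 libraries), of the same genotype, were given 4-hydroxytamoxifen (4OHT), which is commonly used to switch on Cre recombinase. HET cells (1 library) had 1 floxed allele and 1 allele with the change E861A (Fl/E861A) and received vehicle, and MUT cells (1 library) had those alleles and received 4OHT. The Adar1 product deaminates adenosines of double-stranded RNA to inosine. The Cre line, the deleted exons and whether the replicates were separate cultures are not given in the labels, and the p-values reflect the spread of these libraries alone, which could be technical.

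Facts of the whole tables bear on the rows in a few ways. From the steps between low FPKM values, the libraries held an estimated 15900000 to 21800000 fragments. The 12 fibroblast markers summed to 6165 to 6694 FPKM in the 3 vehicle libraries and to 2804 to 3887 in the 3 4OHT libraries, and all 12 were above 1 FPKM somewhere. The 10 pluripotency markers summed to 588 to 740 FPKM in the vehicle libraries and to 18.2 to 50.3 in the 4OHT libraries. Oct4 and Sox2, which the cells received, are among these markers, and delivered and native transcripts were not separated. Summed marker levels thus moved with treatment, and the part of cell state in the changes below was not tested. Fewer cells of a type and less RNA per cell cannot be told apart in such bulk samples. The Adar row stood at 19.6 and 19.5 FPKM in WT, 17.0 in HET, 34.2 and 31.3 in the libraries labelled KO, and 33.0 in MUT. The loss of a few exons may not show in one value per gene, so this row does not check the labels, on which all directions for KO and MUT rest.

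Many of the unnamed rows with high values lie on processed pseudogenes. Such a copy arises when an mRNA is reverse transcribed and inserted back into the genome, so it lacks introns and resembles the coding sequence of its parent gene. Ribosomal protein genes, whose mRNAs are abundant, have left many copies in mammalian genomes. A sequencing read from the parent mRNA can align as well to a copy of identical sequence, and such reads cannot then be assigned by sequence.

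The rows of highest FPKM overlapped pseudogene stretches that could hardly be told from the parent mRNA. Of the 21 unnamed rows under 200 bases, 16 covered at least 40 bases of a single-exon GENCODE pseudogene. All 16 of these stretches aligned over their whole length to the coding part of a protein-coding transcript, 15 with 100% identity and Rps25-ps1 with 98.1%. The stretches were 43 to 151 bases long, and 10 of the 16 most alike genes encode ribosomal proteins. A row named below as like a gene is like it over its pseudogene stretch alone, and its other bases were not aligned. No row covered its pseudogene whole: 9 rows lay over the 5′ end and 7 over the 3′ end. The stretches that follow are from GENCODE transcripts on GRCm38, 5′ to 3′ on the pseudogene's strand, and capitals mark bases that differ from the most alike transcript. The first 3 are shown for their level or change, Gm18860 because it was at 0 in 2 libraries, and Rps25-ps1 because it is the short stretch with differences.
Gm10709 (chr9:7751725-7751864, plus strand, most like Rpl29): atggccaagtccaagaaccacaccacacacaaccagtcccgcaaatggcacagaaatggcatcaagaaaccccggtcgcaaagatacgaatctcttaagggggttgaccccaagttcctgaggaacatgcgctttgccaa
Gm9616 (chr13:3298887-3299037, plus strand, most like Rps4x): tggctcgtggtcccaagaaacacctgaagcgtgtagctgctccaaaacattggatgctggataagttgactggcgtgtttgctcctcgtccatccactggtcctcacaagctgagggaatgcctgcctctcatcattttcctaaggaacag
Gm12174 (chr11:46728547-46728630, plus strand, most like Rpl7): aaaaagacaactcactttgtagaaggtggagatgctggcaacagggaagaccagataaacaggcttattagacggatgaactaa
Gm18860 (chr8:71704205-71704334, minus strand, most like Cnot8): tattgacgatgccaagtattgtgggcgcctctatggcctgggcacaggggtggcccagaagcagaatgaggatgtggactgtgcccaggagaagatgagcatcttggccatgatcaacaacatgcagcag
Rps25-ps1 (chr6:145266400-145266505, plus strand, most like Rps25): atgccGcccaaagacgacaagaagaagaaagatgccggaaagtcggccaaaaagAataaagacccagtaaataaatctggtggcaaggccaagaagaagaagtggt

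The unnamed rows held a sizeable share of each library's FPKM, and nearly all of it sat in those 21 short rows. Unnamed rows made up 9.62% and 10.2% of the summed FPKM in WT, 8.26% in HET, 11.4% and 14.2% in KO and 8.55% in MUT. The 21 rows of 154 to 198 bases alone made up 9.13% and 9.73% in WT, 7.81% in HET, 10.9% and 13.7% in KO and 8.13% in MUT. That was 94.6% to 96.5% of the unnamed FPKM of a library. Between 10 and 13 rows were enough to reach 90% of it. The 49 rows of 200 to under 500 bases held 0.15% to 0.22% of a library, the 487 rows of 500 to under 2000 bases 0.068% to 0.078%, and the 463 nuclear rows of 2000 bases and more 0.083% to 0.101%. The longest unnamed row spanned 1346141 bases and the median was 1776 bases.

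FPKM divides by length, and the short rows stood at the short end of that scale. The median of the row means was 1522 FPKM for the 21 short rows, 4.87 for 200 to under 500 bases, 0.37 for 500 to under 2000 bases and 0.49 for 2000 bases and more. The smallest value above 0 in a library was 32.0 to 103 FPKM among the short rows and 0.029 to 0.0364 FPKM among rows of 500 to under 2000 bases. The fragment numbers behind values of the short rows were not estimated. Steps were sought in unnamed rows of 500 to under 4000 bases with coordinates of their own, in the third series described below. Their low values fell on whole steps (within 0.1 of a step) once 240 to 260 bases were taken off the row length. This offset, sought from 200 to 300 bases, and the fragment number of each library were chosen to bring the most values onto whole steps. The fragment number was also sought within a set range only, so the estimates depend on that range. The offset is more than the whole length of each short row. Its part in the level of the short rows was not tested. All 321 rows with a name and under 200 bases were listed at 0 in all 6 libraries, 10 of them of 154 bases or more. When FPKM was multiplied by row length, unnamed rows held 0.288% to 0.402% of a library, though that product counts introns of long rows too.

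**Figure D1:**
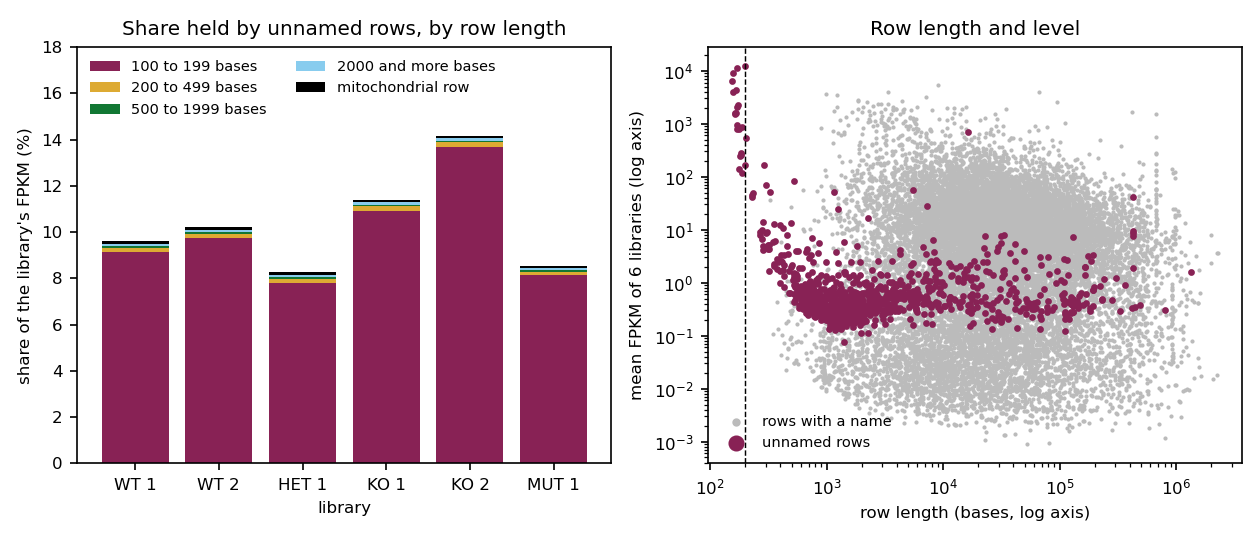
Left, stacked bars of the share of each library's summed FPKM held by unnamed rows, by row length; right, mean FPKM over 6 libraries against row length, both on log axes, for rows with a name (grey) and unnamed rows (purple), with a dashed line at 200 bases. The 21 short rows make up nearly the whole of each bar, from 7.81% in HET to 13.7% in KO 2, and stand at the upper left of the right panel.

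By chromosome, the share followed the location of single rows. Chromosome 9, with 46 unnamed rows, held 22.4% to 30.4% of the unnamed FPKM, chromosome 13 (54 rows) held 13.996% to 24.2%, and the X chromosome (29 rows) 11.4% to 20.1%. Chromosome 11 (70 rows) held 15.4% and 23.5% in WT and 5.02% to 8.80% in the other 4 libraries. The top row alone made up 77.9% of the mean unnamed FPKM of chromosome 9, 98.4% of that of chromosome 13, 84.7% of that of the X chromosome and 98.9% of that of chromosome 11. The 3 rows on the Y chromosome held under 0.01%, from 0.00075% to 0.00723%.

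The annotated loci under the rows were mixed. Against GENCODE release M 21, 208 of the 1021 rows matched a gene (overlap of at least 0.5 of the joint span), 219 lay inside a larger gene, 198 overlapped one in part and 396 overlapped none. Neither GENCODE nor RefSeq had a gene under 227 rows. The 16 rows that matched a pseudogene carried 0.0069% to 0.0139% of a library, and the 813 rows without a match 8.21% to 14.1%. Rows were also classed, without that minimum, by the gene whose overlap was the largest part of the joint span. A small gene could thus be taken before a larger one around the whole row. In these classes, 98 rows on pseudogenes carried 7.92% to 13.8% of a library. The 269 rows on protein-coding genes carried 0.185% to 0.248%. They include the row of the mitochondrial chromosome, which alone held 0.103% to 0.138%. The 254 rows on long noncoding genes carried 0.030% to 0.034%, and the 396 without a GENCODE gene 0.127% to 0.305%. Only 2 rows were classed to a small nucleolar RNA gene and 1 to a miRNA gene.

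The order of the rows in the tables set the unnamed rows apart as well. On each chromosome the rows ran through 3 ascending series of coordinates. In the first, 11049 of 11171 rows matched by symbol lay on plus-strand genes, and in the second 11005 of 11143 lay on minus-strand genes. The first series held 152 unnamed rows, the second 140, and the third 729 unnamed rows and 2 rows with a name. All 21 short rows were in the third series, whose unnamed rows held 8.05% to 13.9% of a library. What the series stand for is not stated in the labels or the file headers.

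The mitochondrial chromosome was a single unnamed row and no row with a name. It ran from chrM:21-16297, nearly the length of the circular genome, which encodes respiratory chain proteins and ribosomal and transfer RNAs. It stood at 826 and 744 FPKM in WT, 662 in HET, 674 and 682 in KO and 620 in MUT. The WT libraries were the highest and MUT the lowest, and KO lay between them. Its share of a library was 0.103% to 0.138%. The KO minus WT difference was -0.21 on the log2(FPKM + 1) scale (SE 0.11, limma adjusted p = 0.134). Since the row spans all mitochondrial genes, no single mitochondrial mRNA is separated here.

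The share of unnamed rows was compared between KO and WT. It was 9.91% ± 0.414 in WT and 12.8% ± 1.95 in KO (SD, n = 2 each), a difference of 2.86 percentage points. Both KO libraries lay above both WT libraries, but an exact permutation test of 2 against 2 cannot go below p = 0.33. Over all 3 4OHT against all 3 vehicle libraries the groups overlapped (two-sided exact permutation p = 0.3, smallest possible 0.1). MUT exceeded HET by 0.292 points, 1 library each. The difference between KO and WT was 1.48 points without KO 2, and it was 0.0299 points when rows under 200 bases were left out. Single rows moved this share in opposite directions. Gm14539 added 1.20 points to the KO minus WT difference, Gm10709 added 0.738, Gpx4-ps2 0.656, Gm9616 0.623 and Gm9794 0.591, while Gm12174 took away 1.20.

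Among the short rows, the highest belonged to copies of ribosomal protein mRNAs. Row chr9:7751668-7751864 over Gm10709 is most like Rpl29, a protein of the large ribosomal subunit. It stood at 10620 and 10347 FPKM in WT, 11881 in HET, 12161 and 19813 in KO and 9281 in MUT. KO 2 was far above the other 5 libraries, and the KO minus WT difference was 0.57 (SE 0.23, adjusted p = 0.0669, limma on log2(FPKM + 1), as for all such differences below). Row chr13:3298867-3299037 over Gm9616 is most like Rps4x, a protein of the small subunit. It stood at 7970 and 10723 FPKM in WT, 11831 in HET, 10418 and 17657 in KO and 8823 in MUT. WT and KO overlapped, and the difference was 0.55 (SE 0.26, adjusted p = 0.104).

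Row chrX:20581026-20581183 over Gm14539, in the 43 of its 158 bases that were aligned, is most like Usmg5. That gene encodes a small subunit of the mitochondrial ATP synthase. The row stood at 7130 and 5017 FPKM in WT, 7091 in HET, 12521 and 15743 in KO and 6163 in MUT. Both KO libraries were above the other 4, and the row rose by 1.23 (SE 0.21, adjusted p = 0.00118). MUT was not above HET. Without WT 2 the adjusted p was 0.0696.

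Row chr11:46728547-46728700 over Gm12174 is most like Rpl7 of the large subunit. It stood at 8773 and 14255 FPKM in WT, 2519 in HET, 3409 and 5870 in KO and 4376 in MUT. The row fell by 1.32 (SE 0.29, adjusted p = 0.0049), and HET, a vehicle library, was lower than both KO libraries. Without WT 2 the adjusted p was 0.087.

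Row chr10:45875918-45876083 lies inside Gpx4-ps2, a transcribed copy of Gpx4, the enzyme that reduces lipid peroxides in membranes. It stood at 2593 and 3226 FPKM in WT, 1356 in HET, 7700 and 6775 in KO and 4097 in MUT. All 3 4OHT libraries were above all 3 vehicle libraries, and the row rose in KO by 1.32 (SE 0.16, adjusted p = 0.000173). Row chr6:66875261-66875418 over Gm9794, most like Rpl23, varied more between replicates, with 4074 and 1003 FPKM in WT, 886 in HET, 3577 and 9582 in KO and 4622 in MUT. Its difference was 1.53 (SE 0.62, adjusted p = 0.0616).

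The next rows by mean level did not differ between WT and KO past the threshold. Rps13-ps2 (chr7:88530380-88530551, most like Rps13) had 2312 and 1521 FPKM in WT and 2909 and 2443 in KO, with 2462 in HET and 1735 in MUT. Gm3756 (chr9:31936707-31936876), whose stretch is shared by the alpha-tubulin genes Tuba1b and Tuba1c, had 2193 and 2131 FPKM in WT, 2239 in HET, 1287 and 3082 in KO and 1353 in MUT. In the first of these rows the WT and KO ranges were close, and in the second they overlapped. Impdh2-ps (chr8:100030487-100030673), like Impdh2 of guanine nucleotide synthesis, had a mean of 871 FPKM. Gm14303 (chr2:172509402-172509578), like Rps29, had a mean of 787 FPKM. The row chr9:25101115-25101284, with no annotated gene, had 1196 and 812 FPKM in WT, 448 in HET, 1404 and 536 in KO and 416 in MUT.

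Of the next short rows, one was missing from a single library and another was lowest in MUT. Gm12715 (chr4:103563322-103563484), like the gamma-actin gene Actg1, had 1337 and 1558 FPKM in WT, 982 in HET, 3139 in KO 1 and 2511 in MUT and was listed at 0 in KO 2. Actg1 itself had 1582 FPKM in KO 2. The row's WT and KO values therefore gave an SE of 2.83 and an adjusted p of 0.19. Rps25-ps1 (chr6:145266337-145266505), like Rps25, had 220 and 894 FPKM in WT, 987 in HET, 1551 and 1925 in KO and 115 in MUT. It rose in KO by 1.96 (SE 0.51, adjusted p = 0.0106), while MUT was the lowest of the 6 libraries.

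**Figure D2:**
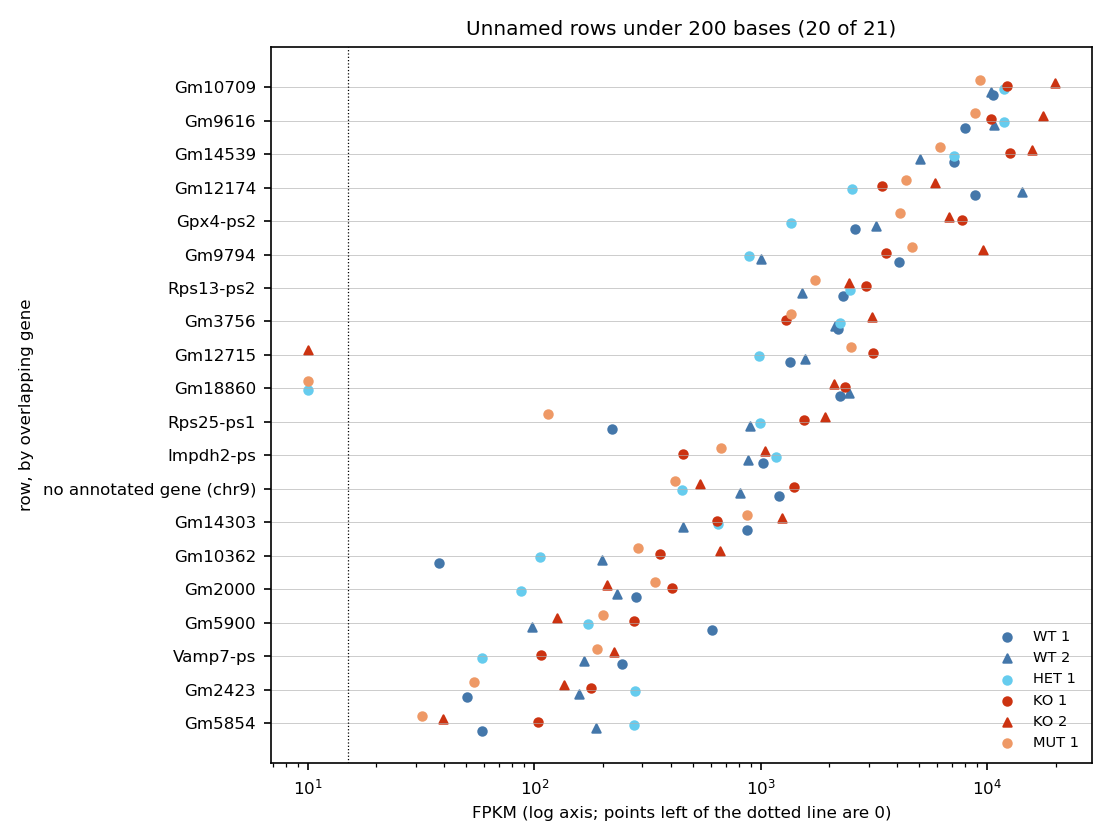
FPKM (log axis) of 20 of the 21 unnamed rows under 200 bases in each of the 6 libraries, rows ordered by mean; points left of the dotted line are 0. Levels run from 32.0 FPKM to 19813, Gm12715 is at 0 in KO 2, and Gm18860 is at 0 in HET and MUT.

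The remaining short rows had means of 116 to 275 FPKM. Apart from Gm10362, which is among the largest called rises, they were named here after their values were seen. They lay over Gm10362, Gm2000, Gm5900 (1 base of its GENCODE span), Vamp7-ps (from RefSeq), Gm2423 and Gm5854. Gm10362 (chr15:73428781-73428962), like Rpl17, had 38.0 and 199.4 FPKM in WT, 106 in HET, 357 and 663 in KO and 287 in MUT, and it rose by 2.46 (SE 0.62, adjusted p = 0.00927). The other 5 rows were not called.

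The 16 short rows with an aligned stretch were each set beside their most alike gene. The other short rows, Gpx4-ps2 among them, were not. The mean FPKM of the 16 genes had a median of 893, and their median percentile among the 17936 rows with a name and above 0 was 99.5. In 11 of 16 cases the mean of the short row over the 6 libraries exceeded that of its gene. By these means Gm10709 was 15.1-fold above Rpl29 and Gm14539 was 16.2-fold above Usmg5, while Gm5854 was at 0.126 times the level of Rpl7a. These are ratios of FPKM between very short rows and whole genes, not of transcript numbers. The offset described above exceeds the length of each short row, and its part in these ratios was not tested.

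Between KO and WT, 4 of the 16 rows and 7 of their genes were called, where 56.1% of all tested rows were. Among these 7, the row taken for Impdh2 also carries the names Qars and Qrich1, so its call cannot be assigned to Impdh2 alone. The 1 pair with both called was Rps25-ps1 and Rps25: Rps25-ps1 rose by 1.96 and Rps25 fell by 0.34 (adjusted p = 0.0409). The log2 differences had the same sign in 7 of 16 pairs. Rpl7 had -0.25 (adjusted p = 0.0742) beside the fall of Gm12174, and Usmg5 had -0.07 (adjusted p = 0.602) beside the rise of Gm14539. Rpl17 had 0.01 (adjusted p = 0.959) beside the rise of Gm10362. Rps4x fell by 0.55 (adjusted p = 0.00281) and Tuba1b fell by 0.89 (adjusted p = 0.000695), while the values of their rows, 0.55 for Gm9616 and -0.12 for Gm3756, were not called. No difference between a row and its gene was tested.

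**Figure D3:**
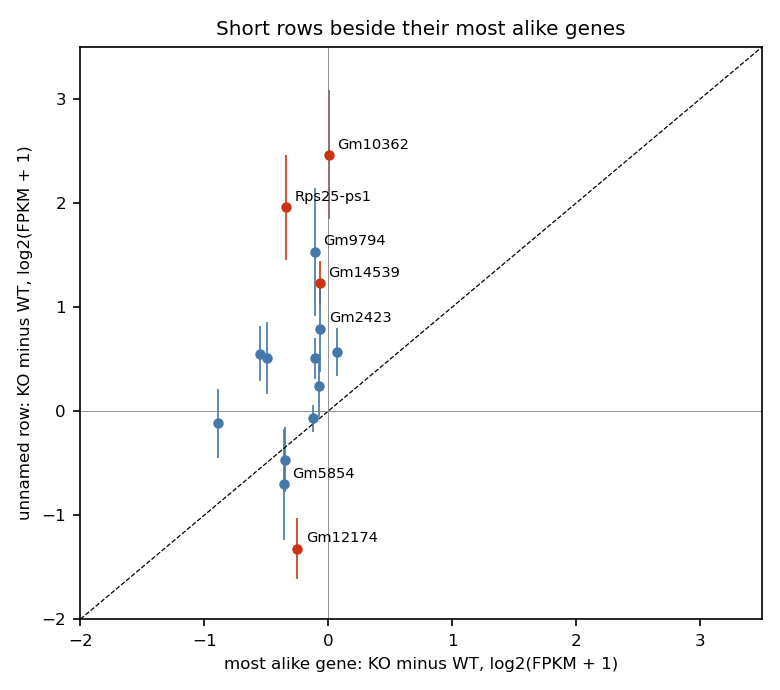
KO minus WT differences on the log2(FPKM + 1) scale for short rows (vertical, with limma SE) against those of their most alike genes (horizontal); red rows were called, the dashed line marks equality, and Gm12715, at -4.69 with a 0 in KO 2, is left off. The genes shown lie between -0.89 and 0.07, while the rows lie between -1.32 and 2.46.

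Short rows also varied far more between replicates than their genes did. The median size of the difference between WT 1 and WT 2 was 0.65 on the log2 scale for the 16 rows and 0.07 for their genes, and between KO 1 and KO 2 it was 0.77 for the rows and 0.13 for the genes. The row differed more than its gene in 15 of 16 pairs in WT and in 16 of 16 in KO. Over all tested unnamed rows, 25 of 305 differed at least 2-fold between the WT libraries, where the background over all 12664 tested rows was 0.308%, and 21 of 305 did so between the KO libraries, where it was 0.292%. By length, this was 7 and 8 of the 21 short rows, 10 and 9 of the 44 rows of 200 to under 500 bases, and 8 and 4 of the 240 longer rows, in WT and KO. Rows with a name and a mean of at least 100 FPKM had a median of 0.09 in WT and 0.14 in KO. The spread in the limma fit follows the mean level, so it may be too small for short rows, and their adjusted p-values are to be read with that in mind.

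**Figure D4:**
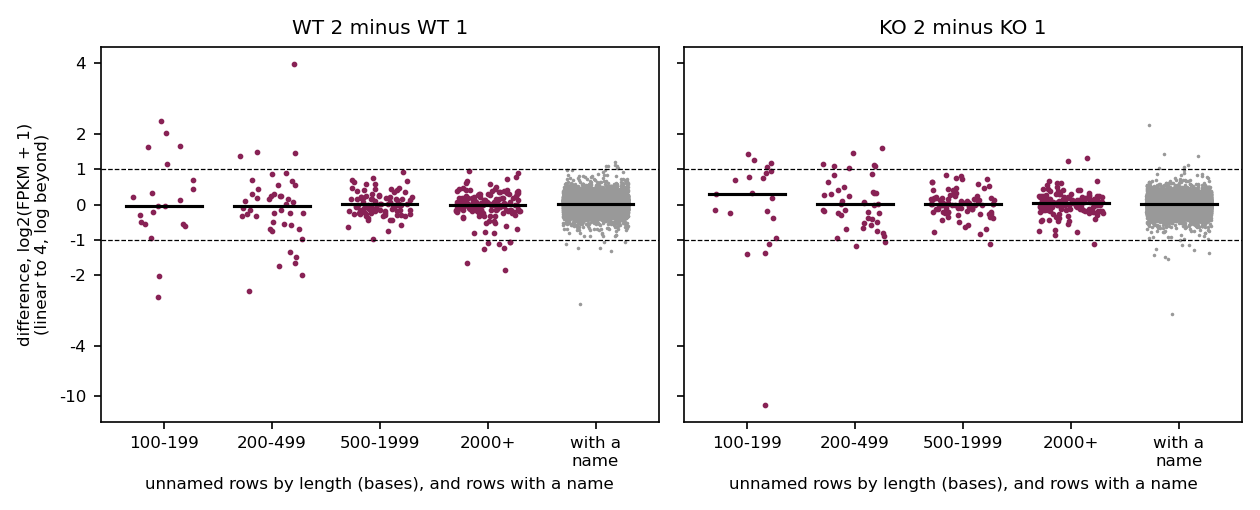
Differences between the WT libraries (left) and between the KO libraries (right) on the log2(FPKM + 1) scale for tested unnamed rows by length and for rows with a name; bars are medians, dashed lines mark a 2-fold difference, and the axis is linear to 4 and logarithmic beyond. Rows under 200 bases spread most, with 7 of 21 past 2-fold in WT and 8 of 21 in KO.

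Of the 305 unnamed rows tested (FPKM of at least 1 in at least 2 libraries), 155 were called in KO against WT, or 50.8%, where the background over all rows was 56.1%. The rows split into 87 higher (28.5%, background 28.7%) and 68 lower (22.3%, background 27.4%), and their median difference was 0.06, against 0.02 over all rows. These shares were near the background. Of the short rows, 5 of 21 were called, and of the rows of 500 bases and more 131 of 240. By the same classes of overlapping gene as above, pseudogenes had 23 rows higher, 8 lower and 42 not called. Protein-coding genes had 20 higher, 20 lower and 44 not called, long noncoding genes 21, 21 and 28, and rows without a gene 22, 18 and 36.

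The largest rise among called rows with a mean of at least 5 FPKM was at Sh2d6, which encodes an SH2-domain adaptor protein. The row chr6:72513647-72521796 had 0.462 and 0.536 FPKM in WT, 0.579 in HET, 12.01 and 10.6 in KO and 14.2 in MUT. All 3 4OHT libraries were far above all 3 vehicle libraries, and the rise was 3.04 (SE 0.12, adjusted p = 4.79e-07). The row chr18:39605935-39735669, which matches the long noncoding gene AC124518.1, rose from 2.67 ± 0.848 to 16.1 ± 2.1 FPKM (SD, n = 2 each), with 1.74 in HET and 4.65 in MUT. It is 1 of 4 rows at these coordinates, which overlap 3 GENCODE genes, so its transcript may lie anywhere in that span. Gm41108 (chr14:24391014-24391282, from RefSeq) had 3.21 and 3.72 FPKM in WT, 1.68 in HET, 19.3 and 11.7 in KO and 7.77 in MUT, a rise of 1.85. Each of these 3 rows was higher in the KO than in the WT libraries without overlap, and in MUT than in HET.

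Smaller rises came from rows on other copies. Row chr2:22589599-22589942 overlaps Gm13340, a nuclear copy of mitochondrial sequence, over 49 bases that are identical to mt-Co1, and had 6.06 and 1.24 FPKM in WT and 9.72 and 11.7 in KO. Gm9517 (chr12:113630500-113630778), most like Ankrd12, had 9.26 and 3.05 FPKM in WT and 14.2 and 20.4 in KO, a rise of 1.48 beside a rise of 0.82 for Ankrd12. On chromosome 8, Gm6483 (chr8:19682286-19687732) rose by 1.35 and the row chr8:20550140-20572834 over Gm21092 by 1.35 as well. These 2 rows lie on either side of a locus where several rows share the same coordinates. The sequences of these rows were not compared, and how reads there were assigned is not known, so their values are uncertain.

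That locus, chr8:19729576-20152439, held 5 unnamed rows and 2 rows with a name at the same coordinates. Of the 5 rows of largest FPKM multiplied by length, 4 were here, and the mitochondrial row was the other. The highest had 24.6 and 24.3 FPKM in WT, 25.2 in HET, 64.3 and 76.7 in KO and 33.5 in MUT, a rise of 1.49 (SE 0.11, adjusted p = 8.94e-06). Another had 6.66 and 2.71 FPKM in WT and 15.5 and 8.54 in KO and rose by 1.23 (adjusted p = 0.0129). The others of the 4 differed by 0.05 and 0.22 and were not called, and the row Gm21119 at the same coordinates differed by 0.21 (adjusted p = 0.178). Rows at the same coordinates thus did not move together here.

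Of the 65 unnamed rows with a mean of at least 5 FPKM, 20 were called higher and 4 lower, where 28.7% of all tested rows were called higher and 27.4% lower. The 4 lower rows were Gm12174, Gm13577, an Evi5l row and a Ppp2r3d row. Gm13577 (chr2:64474581-64474806) is most like Hmgb1, a chromatin protein that bends DNA. It had 54.5 and 67.8 FPKM in WT, 55.1 in HET, 28.6 and 25.8 in KO and 40.8 in MUT, and it fell by 1.13 (SE 0.12, adjusted p = 8.32e-05). Hmgb1 fell by 1.41 (adjusted p = 8.64e-06). The row at chr8:4166528-4207913, the span of Evi5l, had 3.91 and 7.36 FPKM in WT, 8.20 in HET, 2.61 and 2.12 in KO and 7.84 in MUT and fell by 0.93 (adjusted p = 0.00693). Another unnamed row of the same span differed by -0.17 (adjusted p = 0.342), and the Evi5l row with a name by -0.14 (adjusted p = 0.254). Row chr9:124438752-124441018, inside Ppp2r3d, had 18.7 and 19.3 FPKM in WT and 12.8 and 16.03 in KO and fell by 0.39 (adjusted p = 0.0224), a call lost without KO 1, without WT 1 and without WT 2.

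In 118 unnamed rows the coordinates were those of a row with a name, so the row's own transcript lies somewhere in that span. In 38 pairs both rows were tested. Both were called in 16 pairs, in 14 of them in the same direction and in 2 in opposite directions. The unnamed row alone was called in 7 pairs and the named row alone in 8, where 56.1% of all tested rows were called. Several pairs share a named row, so they are not independent. At Clasp1, which encodes a microtubule-binding protein, the unnamed row (chr1:118388027-118609673) fell by 0.65 and the named row rose by 0.28. At Ntn1, which encodes the guidance cue netrin 1, the named row went from 21.04 and 18.2 FPKM in WT to 3.22 and 2.93 in KO. An unnamed row of the same span (chr11:68209364-68401269) went from 8.57 and 4.53 FPKM in WT and 6.43 in HET to 0 in both KO libraries and MUT. At Hist1h2bj, a clustered histone gene, the named row rose by 1.999 and the unnamed row (chr13:22042478-22047928) by 1.86. These loci were named after their values were seen.

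Rows of known small RNA classes gave little to set beside the unnamed rows. No row with a name carried a mitochondrial gene symbol. Of 96 small nucleolar RNA rows, 94 were at 0 in all 6 libraries, as were 4 of 4 small nuclear RNA rows and 978 of 1003 miRNA rows. Over all tested rows 28.7% rose and 27.4% fell. Among 20 tested miRNA rows 5 rose, 5 fell and 10 were not called. Of 2 tested small nucleolar RNA rows, and likewise of 2 tested RNA polymerase III rows, 1 fell and 1 was not called. Of 14 tested host genes of small nucleolar RNAs 6 rose, 2 fell and 6 were not called, with a median of 0.21. Of 26 tested histone rows 16 rose, 2 fell and 8 were not called, with a median of 0.66 against 0.02 over all rows.

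MUT was set against HET with 1 library a side, without a test. At least 2-fold, 45 unnamed rows were higher and 43 lower, or 88 of 305 (28.9%), where the background over all rows was 5.19% higher, 8.88% lower and 14.1% in all. It was 9 of 21 short rows and 19 of 44 rows of 200 to under 500 bases, the lengths that also differed most between replicates, and 60 of 240 longer rows. In 4OHT against vehicle, with allele background in the fit, 138 of 305 were called (45.2%, background 56.3%), 83 higher (background 28.8%) and 55 lower (background 27.6%). KO and WT libraries are part of that comparison too. The effect in KO differed from that in MUT in 10 of 305 rows (3.28%, background 2.73%), 6 above (background 0.64%) and 4 below (background 2.09%). Their number was 55 without KO 1 and 39 without KO 2, and both hold all 10. Without WT 1 it was 9, of which 6 were among the 10, and without WT 2 it was 9, of which 4 were.

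A few rows followed the Adar1 allele background rather than treatment, a pattern looked for after seeing the data. Over all 24879 rows, 5 were at 0 in HET and MUT and at 1 FPKM or more in all 4 WT and KO libraries, and 1 was the reverse, so the background was 0.0241%. All 6 were unnamed. Gm18860 (chr8:71704172-71704334), like Cnot8, a deadenylase subunit of the CCR4-NOT complex, had 2229 and 2448 FPKM in WT and 2354 and 2099 in KO and was listed at 0 in HET and MUT. Cnot8 had 36.6 and 36.4 FPKM in WT, 43.4 in HET, 33.0 and 34.0 in KO and 38.4 in MUT, so the parent gene was not absent there.

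The other rows of this kind were lower. Amd-ps5 (chr6:70328058-70328288, from RefSeq) had 75.9 and 77.3 FPKM in WT and 82.5 and 54.6 in KO. Gm12663 (chr11:16634738-16635091, from RefSeq) had 22.5 and 15.7 FPKM in WT and 19.9 and 17.8 in KO. Gm11868 (chr4:18844597-18845139) had 4.99 and 4.27 FPKM in WT and 7.398 and 6.91 in KO, where it also rose by 0.54 (adjusted p = 0.00384). The row chr11:28337350-28338107, with no annotated gene, had 4.09 and 3.16 FPKM in WT and 3.57 and 4.08 in KO, or an estimated 27.9 to 41.8 fragments per library. All 4 were listed at 0 in HET and MUT. The reverse row, chrX:170011510-170012110, inside Gm21887 (Erdr1 in RefSeq), had 3.93 FPKM in HET and 1.25 in MUT, or an estimated 24.8 and 6.95 fragments, and was at 0 in WT and KO. With 1 library of each Fl/E861A group, a difference of litter or strain and the E861A allele cannot be told apart. By treatment, 11 rows were at 0 in the 3 4OHT libraries and at 1 FPKM or more in the 3 vehicle libraries, 5 of them unnamed, and none was the reverse.

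**Figure D5:**
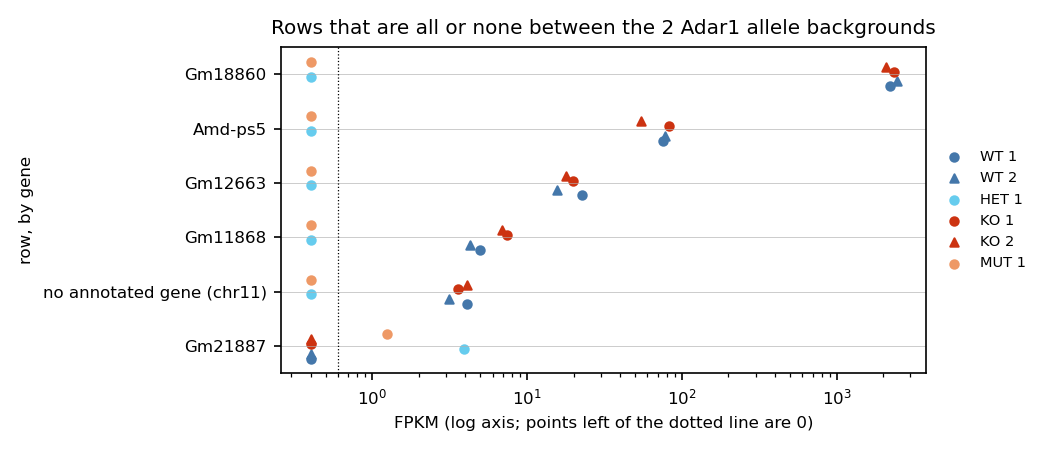
FPKM (log axis) in each of the 6 libraries for the 6 rows that are at 0 in the libraries of 1 Adar1 allele background and at 1 FPKM or more in those of the other; points left of the dotted line are 0. Of the 6 rows, 5 are at 0 in HET and MUT, led by Gm18860 at 2099 to 2448 FPKM in WT and KO, and Gm21887 is at 0 in WT and KO.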

How the data were processed

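Total RNA depleted of ribosomal RNA was sequenced, per the labels' protocols. The deposited values are FPKM per row, per the file headers, written with decimal commas, and no count test was applied. Cufflinks 2.2.1, TopHat2 2.1.1 and Bowtie2 2.3.0 are named in the submitters' processing notes, as are GRCm38 and mm10, but no roles are given. No annotation, strand use or scaling is given in the sources used here. Other numeric values deposited by the authors in these files (row start and end) were used only as coordinates; starts count from 0 and are printed from 1.

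Rows that reached 1 FPKM in 2 or more of the 6 libraries were tested on log2(FPKM + 1), two-sided, in limma 3.58.1 (R 4.3.3; lmFit, then eBayes with a mean trend). Benjamini-Hochberg adjustment covered all 12664 rows tested, 305 of them unnamed, and a row was called under 0.05. This scale understates fold changes of low rows. The fit was tested on simulated data. The contrast of KO and MUT effects was fitted on 4 group means, with the spread taken from the WT and KO pairs. Rows were assigned to GENCODE M 21 genes on either strand, then to RefSeq, and pseudogene stretches of at least 40 bases were aligned to protein-coding transcripts with BLAST 2.17.0. Without strand, reads of overlapping genes, and of near-identical copies, cannot be told apart.

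Rows named are the 15 of highest mean, the 10 largest called rises and up to 10 called falls among rows averaging 5 FPKM or more, the 5 of highest FPKM multiplied by length, and the mitochondrial row; 1 of them is not reported here. The members and lists were chosen with earlier results of these data known. Alternatives were another pseudocount (0.1), no filter, 2 scalings, leaving out each WT or KO library, a replicate block and, added after seeing the data, a spread not modelled on the mean.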

Additional observations from a re-analysis of the deposited data

Results flagged for a closer look

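In 10 unnamed rows the KO minus WT difference departed from the MUT minus HET difference by a test of that departure itself (limma on log2(FPKM + 1), adjusted p of 0.0022 to 0.0443; HET and MUT are 1 library each). Of these 10 calls, 6 were kept without WT 1 and 4 without WT 2. The largest was Rps25-ps1 at 5.05, with 220 and 894 FPKM in WT, 1551 and 1925 in KO, 987 in HET and 115 in MUT. Gm4617 (chr3:124385726-124386002) had 2.28, with 6.86 and 6.34 FPKM in WT, 5.92 and 4.90 in KO, 14.4 in HET and 1.66 in MUT. The row chr1:74124694-74125212, which RefSeq places at Rufy4, had 1.77, and Gm6483 had 1.73, with 56.7 FPKM in HET and 43.4 in MUT. Gm21887 had 1.13, from 3.93 FPKM in HET and 1.25 in MUT and 0 in the other 4 libraries. Since the spread is taken from the WT and KO pairs, Gm21887 had no spread of its own. Its call rests on the spread of other rows and on 1 library a side. The highest row of chr8:19729576-20152439 had 1.09.

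The departure was negative in the other 4 rows. The row chr4:64396623-64405590, with no annotated gene, had -2.78, from 10.5 and 3.82 FPKM in WT and under 0.1 in the other 4 libraries. Gm4804 (chr12:15702734-15734406) had -1.61, from 2.49 and 2.68 FPKM in WT and 0.403 in HET. Gm21297 (chr12:24251914-24252473) had -1.52, with 0.178 FPKM in HET and 2.02 in MUT. The row chr1:173747290-173913105, the span of interferon-inducible genes that include Mndal, had -1.26, with 0.602 and 0.821 FPKM in WT, 2.15 and 1.82 in KO, 0.66 in HET and 5.93 in MUT.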

How the results depend on the processing

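No fragment number was estimated for rows under 200 bases, and the counting error of their FPKM is not known, and the single HET and MUT libraries have no replicate. In KO against WT the number of unnamed rows called stayed within 1.5 times of 155 except without the filter, which called 263 of 1018 rows, 127 higher and 136 lower. The share called higher moved by under 10 percentage points in each setting. Leaving out 1 library gave 146 to 172, and the fit with the replicate block 174, although the pairs share only a number: the deviations of the pairs had an r of 0.15 across 12664 rows. Under the block, 1 of the unnamed rows picked out by the stated rules gained a call and no other of them changed sides. With no filter, 4OHT against vehicle called 340 rows. Leaving out 1 library gave 121 to 128.

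For the difference between KO and MUT effects, limma called 16 rows with median-of-ratios scaling, 20 with equal totals over rows with a name and 0 with no filter, where 217 had an unadjusted p under 0.05. Leaving out 1 library gave 9 to 55 calls, of which 4 to 10 were among the 10. MUT against HET had 138 rows at 2-fold with a pseudocount of 0.1.

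The KO minus WT difference in share was 0.0990 points with FPKM multiplied by length and 0.0299 without rows under 200 bases, and 0.111 and 0.0533 for nuclear rows alone. The mitochondrial share differed by -0.0246 points, and by -0.0119 with FPKM multiplied by length. Leaving out 1 library gave 1.48 to 4.25 points for all unnamed rows, 1.502 to 4.27 for nuclear rows and -0.0314 to -0.0178 for the mitochondrial row.

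Of 17 unnamed rows picked out by the stated rules and called in KO against WT, 9 lost the call in at least 1 setting. All 9 did so with no filter. Gm12174 and Gm14539 had adjusted p-values of 0.13 and 0.103 with no filter. Differences that changed sign on leaving out 1 library ran from -0.75 (without KO 2) to 0.51 (without KO 1) for Gm3756, from -10.5 (without KO 1) to 1.12 (without KO 2) for Gm12715, from -0.15 to 0.011 (without KO 2) for Gm18860, from -1.06 to 0.13 (without KO 1) for Impdh2-ps, from -0.88 to 0.51 (without KO 2; 0.096 without WT 1) for the unannotated row on chromosome 9, and from -0.31 (without KO 1; -0.015 without WT 2) to 0.41 for the row of chr8:19729576-20152439 with a mean of 9.26 FPKM. None of these was called with all libraries. The causes were not tested.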
